A study of Caenorhabditis elegans with 5 samples.

Results

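The regions described here are the PHA-4::GFP binding regions on chromosome III of *Caenorhabditis elegans*. They were chosen by chromosome alone, as the entries on III in the authors' combined list of enriched regions, and number 1063 of 7745 (13.7%). The separate lists of the replicates held 605 regions of 4077 (replicate 1) and 766 of 5335 (replicate 2) on III, and these were used to show which members were found again. Chromosomes II, IV, V and X, with 1076, 1199, 1355 and 1395 combined regions, served for comparison, and chromosome I was left out of it.

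The worms were hermaphrodite L2 larvae of strain OP37, grown at 20 °C and fixed with 2% formaldehyde. The strain carries the mutation unc-119(ed3), which its genotype places on III, and the integrated transgene wgIs37. This transgene, introduced by bombardment, supplies unc-119(+) and PHA-4 with a TY1, EGFP and 3xFLAG tag. The genotype names no change to the worm's own pha-4 gene, so untagged PHA-4 may also have been present and would not have been captured by the anti-GFP antibody. Whole larvae were used for ChIP-seq, in which DNA bound to the captured protein is sequenced. There were 3 immunoprecipitations, 1 of replicate 1 and 2 of replicate 2, and 2 inputs carrying the number of replicate 1. Nothing in the labels ties the replicates to different cultures, so their overlap may measure technical repeats only. Positions of genes on the same build were not used here, and the regions are named by position, on WormBase WS190.

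PHA-4 is the worm's FoxA factor. FoxA proteins bind DNA through a forkhead domain and can reach their sites in closed chromatin, and PHA-4 is required to form the pharynx and also acts in the gut. Because the larvae were taken whole, a region can come from any tissue in which the fusion protein is made. *C. elegans* autosomes have a gene-dense centre between arms that recombine more often. Every entry gives a position and a q-value from PeakSeq, a program that scores sequenced tags of an immunoprecipitation against a control. All q-values are the authors' own. They rank the evidence for enrichment within a list, and are not levels of binding.

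Regions lay along the whole of chromosome III, with 2 crests towards the middle. The chromosome was divided into 14 bins of 1 Mb, the last of which reached only to 13771395, the furthest region end in any list. The fullest bin was 5000001 to 6000000, with 113 combined regions, 67 of replicate 1 and 72 of replicate 2. It was followed by 8000001 to 9000000, with 106, 61 and 82 regions in the same lists. Next came 4000001 to 5000000, with 85 combined regions. The emptiest bins were the first 2 from the left end, with 56 and 53 combined regions. At the right end the last, shorter bin held 62 regions, or 80.4 per Mb.

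**Figure D1:**
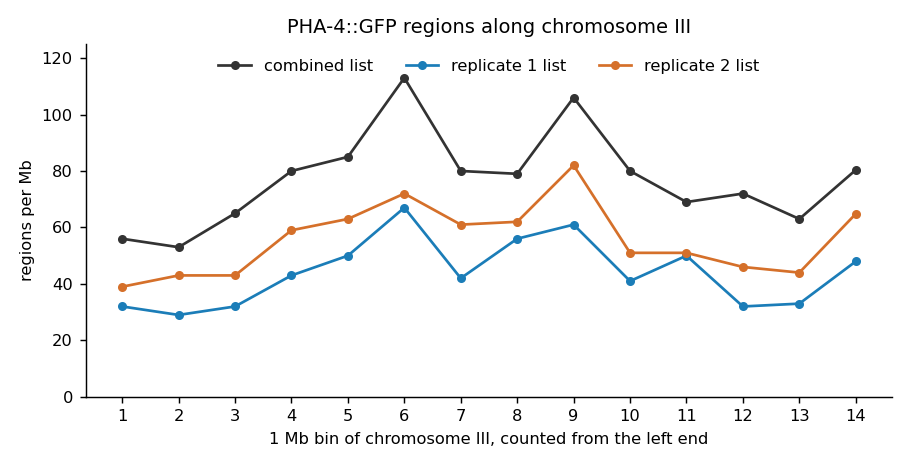
Number of PHA-4::GFP regions per Mb (y axis) in each 1 Mb bin of chromosome III (x axis, counted from the left end) in the combined, replicate 1 and replicate 2 lists. Bins 6 and 9 stand highest in all 3 lists, at 113 and 106 combined regions, and bins 1 and 2 are lowest in the combined list, at 56 and 53.

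The order of the crests depended on the list: replicate 1 had its highest count at 5000001 to 6000000 (67) and replicate 2 at 8000001 to 9000000 (82). Otherwise the lists followed each other along the chromosome, with a Spearman correlation of bin counts between replicate 1 and replicate 2 of 0.93 over 14 bins. This is a description only, since bins of a chromosome are not independent and the lists may share an input. The fullest bin also had the most sequence inside regions, 5.26% of its length, against 2.09% in the emptiest. Median width changed little along the chromosome, from 331 bp in the bin 8000001 to 9000000 to 399 bp in 7000001 to 8000000.

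Chromosome III held more regions for its length than II, IV, V and X together. Chromosome I was left out, so these values do not place III within the whole genome. Per Mb it had 77.2 regions, against 70.5 on II, 68.5 on IV, 64.8 on V and 78.7 on X. Of the 6088 combined regions on these 5 chromosomes, 17.5% lay on III (95% exact interval 16.5 to 18.4), which makes up 16.2% of their length (exact binomial p = 0.00698, adjusted p = 0.0419 over 6 tests). Of the 24 tests of III against a single chromosome, 1 passed: III held 44.0% of the regions of III and V together, with 39.7% of their length (exact binomial adjusted p = 0.000534). Against X the shares were 43.2% and 43.7%, and against II and IV the adjusted exact p was 0.214 and 0.0621. The excess was also present in the replicate lists, at 18.1% of replicate 1 regions (exact p = 0.00333) and 17.6% of replicate 2 regions (exact p = 0.0113). In the replicate 2 list and among regions of 100 bp or more the adjusted p rose above 0.05, to 0.0679 and 0.0505. All tests here treat regions as independent, and their p-values are too small where neighbouring regions were called together.

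The regions were spread more evenly on III than on II, IV or V. Over the 13 full bins of III the combined counts ran from 53 to 113, with a median of 79, and had a coefficient of variation of 22.7%. The same coefficient was 36.3% on II, 31.5% on IV, 38.9% on V and 17.9% on X. In replicate 1 it was 28.2% on III, against 44.5%, 35.7%, 51.8% and 22.1% on II, IV, V and X, and in replicate 2 it was 23.2% on III, against 38.6%, 34.6%, 38.6% and 17.7%. In each list III therefore stood between X and the other autosomes compared. No bin of III was as empty as the lowest bins of II, IV and V, which held 33, 29 and 30 combined regions. These differences in spread were not tested.

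**Figure D2:**
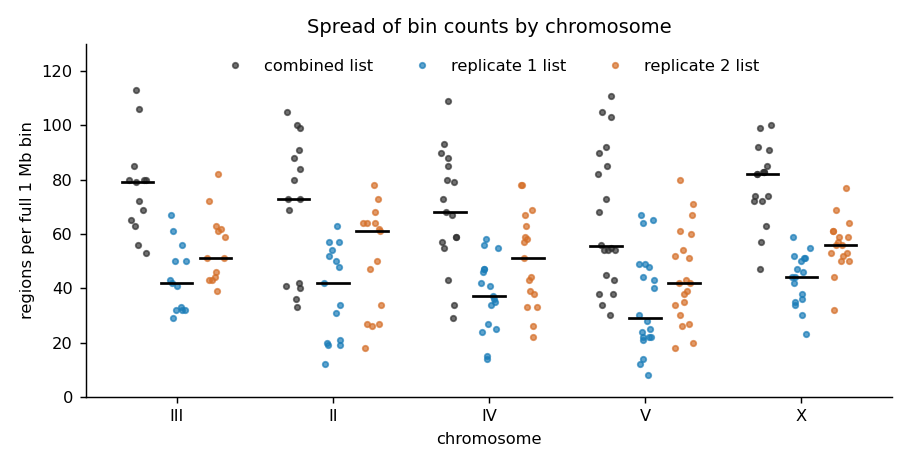
Regions per full 1 Mb bin (y axis) on III and on the chromosomes it is compared with (x axis), for the combined, replicate 1 and replicate 2 lists. Each point is a bin and each black bar the median over bins. The combined counts on III lie between 53 and 113, whereas II, IV and V reach down to 33, 29 and 30.

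Neighbouring regions on III were a median of 6732.5 bp apart, measured from the end of one to the start of the next, with an interquartile range of 1849 to 17188 bp. The median gap was 6423 bp on II, 5897 bp on IV, 6537 bp on V and 5348.5 bp on X, so in the combined list III had the longest although it was denser than II, IV and V. In the replicate lists it did not: the median gap was 12042.5 bp on III against 12680 bp on IV in replicate 1, and 10223 bp on III against 11213 bp on V in replicate 2. Gaps over 50 kb numbered 38 on III (3.58%), against 5.12% on II, 5.76% on IV, 6.87% on V and 3.87% on X, a difference that was not tested. The 2 longest gaps on III lay near its ends, at 154514 to 299307 (144794 bp) and at 12711536 to 12838778 (127243 bp). The longest gap on each of II, IV, V and X was greater, from 153341 bp on II to 273107 bp on V. In each of the 2 gaps replicate 1 had 0 regions and replicate 2 had 1. No gap on III was shorter than 204 bp, and the shortest in any list on the 5 chromosomes was 200 bp, so regions closer than this do not occur as separate entries. Gaps of 1 kb or less made up 167 of 1062 on III (15.7%, exact interval 13.6 to 18.1). Over all chromosomes 17.7% of gaps were this short, and on II, IV, V and X together 17.1% (Fisher's exact test, p = 0.300, adjusted p = 0.599).

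Long runs of close neighbours held a smaller share of the regions on III than on II, IV, V or X in each list. A test passed in replicate 2 alone. A dense stretch was defined as 4 or more consecutive regions with gaps of 2 kb or less. In the combined list III had 22 such stretches holding 96 regions, 9.03% of its members, where 12.7% of all regions were in one. The corresponding shares were 11.0% on II, 13.3% on IV, 12.8% on V and 11.2% on X. With gaps of 1 kb or less the order did not hold, at 3.29% on III, against 3.16% on II and 2.65% on X. Of the members of III, 587 had no neighbour within 2 kb, 278 stood in pairs and 102 in groups of 3. Replicate 1 had 4 dense stretches on III, against 4 on II, 8 on IV, 13 on V and 6 on X. They held 2.64% of its regions on III, against 3.19% on II, 5.96% on IV, 8.38% on V and 3.53% on X. Replicate 2 had 1 on III, with 4 regions, against 11 on II, 9 on IV, 16 on V and 16 on X.

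A test of this difference was added after the values were seen, with runs of neighbours rather than regions as the units, a region with no neighbour within 2 kb counting as a run. Dense stretches made up 22 of 782 runs on III in the combined list (2.81%), against 3.68% on II, IV, V and X together (Fisher's exact test, p = 0.284, adjusted p = 0.284 over 4 added tests). In replicate 2 they made up 1 of 618 runs (0.162%), against 1.86% (Fisher's exact p = 0.000475, adjusted p = 0.00095). In replicate 1 the shares were 0.811% and 1.42% (Fisher's exact p = 0.381). The difference between the lists was not tested.

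**Figure D3:**
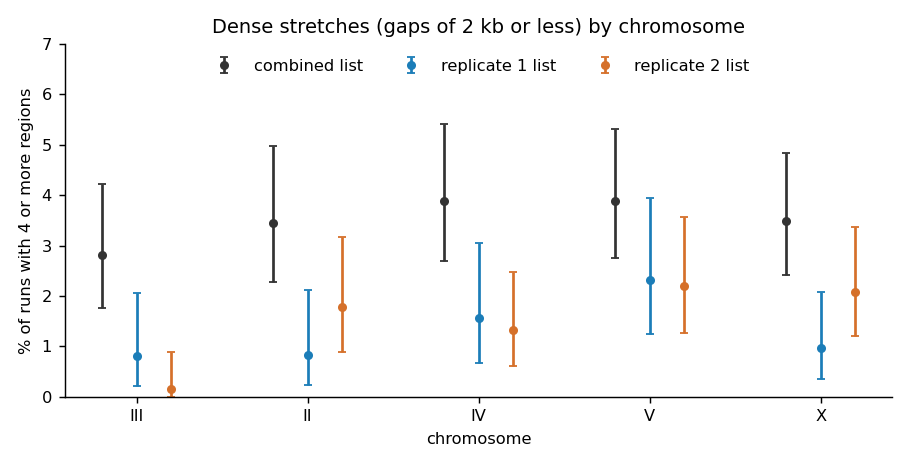
Share of runs of neighbouring regions (gaps of 2 kb or less) that hold 4 or more regions (y axis, %), by chromosome (x axis) and list; bars are 95% exact binomial intervals, which cover counting error only. In replicate 2 the share on III is 0.162%, against 1.32% to 2.21% on the other chromosomes shown.

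The stretch with the most members lay at 5835118 to 5844227, within the fullest bin. Its 7 regions covered 6295 of 9110 bp (69.1%), with gaps of 273 to 711 bp. Both replicates were present, with 5 regions in replicate 1 and 4 in replicate 2, and 4 of the 7 combined regions overlapped both. The strongest of them, 5842774 to 5844227 (1454 bp), had a q of 1.10e-26 in the combined list. It was matched in replicate 1 at 5843594 to 5844199 (q 4.67e-12) and in replicate 2 at 5843565 to 5844181 (q 1.81e-18). The 3 members found in neither replicate were weak, with q-values from 0.000231 to 0.00923, and 2 of them were over 1 kb wide.

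The next stretches by number were sparser. That at 7315196 to 7323460 had 6 regions over 8265 bp, of which 3 overlapped both replicate lists. Those at 2089502 to 2095093, 5562757 to 5568964 and 2869550 to 2876552 had 5 regions each. In the stretch at 5562757, 3 of the 5 regions were found in replicate 1 alone, which had 5 regions there, against 1 in replicate 2. The remaining 17 stretches had 4 regions each. Lengths of all 22 ran from 2935 to 9110 bp, with a median of 4709 bp. By bin, 4 stretches lay in 5000001 to 6000000, 3 each in the bins that begin at 1, 2000001 and 8000001, and 0 in 4 of the 14 bins.

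A stretch held some of the strongest members of the chromosome. At 1920877 to 1926894, 4 regions in 6018 bp ranked 4, 8, 104 and 225 among the 1063 by combined q. Their combined q-values were 6.35e-82, 1.00e-56, 1.98e-22 and 1.32e-13. All 4 were present in replicate 1, at places 3, 9, 24 and 76 of its regions on III. In replicate 2 the first 3 were present, at places 11, 16 and 344, and the weakest, 1923434 to 1923932, was absent. Inside dense stretches 50 of 96 members overlapped both replicate lists (52.1%, exact interval 41.6 to 62.4), and outside them 432 of 967 did (44.7%, 41.5 to 47.9). The intervals overlapped. Median width was 402 bp inside and 355 bp outside.

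The second question was how many of the members on III were found in each replicate. Of 1063, 482 overlapped a region of both replicates by at least 1 bp (45.3%, exact interval 42.3 to 48.4), where 41.2% of all 7745 combined regions did. A further 107 (10.1%) overlapped replicate 1 alone, 236 (22.2%) replicate 2 alone, and 238 (22.4%, 19.9 to 25.02) neither, where 25.7% of all regions overlapped neither. On II, IV, V and X together 42.1% overlapped both (Fisher's exact p = 0.0561, adjusted p = 0.168) and 22.7% neither (Fisher's exact p = 0.840, adjusted p = 1). There 11.3% overlapped replicate 1 alone and 23.8% replicate 2 alone, near the shares on III. The share in both was 41.9% on II, 43.9% on IV, 40.3% on V and 42.7% on X. None of the 4 chromosomes taken alone differed from III past the threshold, with the lowest adjusted exact p for V (0.104). The combined list draws on both replicates, so presence in it and in them is not independent.

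Taken from the replicate lists, 489 of 605 replicate 1 regions on III had a partner in replicate 2 (80.8%, exact interval 77.5 to 83.9), against 78.2% on the other 4 chromosomes. In the other direction 492 of 766 had one (64.2%, 60.7 to 67.6), against 60.1%. Neither difference passed Fisher's exact test after adjustment over the 4 added tests (adjusted p = 0.206 and 0.068). With a reciprocal overlap of 50% the second did, at 58.2% against 53.6% (Fisher's exact test, adjusted p = 0.0409). All but 6 of the replicate 1 regions and 35 of the replicate 2 regions on III overlapped a combined region, and the lowest q among those left out was 0.000447 in replicate 1 and 0.00063 in replicate 2.

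Presence in both lists went with the q-value of the member. With the 1063 members in 4 equal groups by combined q, 260 of 266 in the strongest overlapped both lists (97.7%), then 196 of 266 (73.7%), 26 of 265 (9.81%) and 0 of 266 in the weakest. The weakest group began at a q of 0.000662. The numbers found in neither list were 0, 1, 56 and 181. The best-placed member found in neither stood at place 511. The combined list draws on both replicates, so its q is not independent of presence in them, and part of this fall is built in. With replicate 1 regions on III grouped by their own q, 98.0%, 94.0%, 72.8% and 58.3% had a partner in replicate 2, strongest group first. The same shares for replicate 2 regions were 95.8%, 79.1%, 51.3% and 30.7%. Replicate presence also varied along the chromosome, from 32.5% in both lists in 9000001 to 10000000 (26 of 80, exact interval 22.4 to 43.9) to 59.5% in 7000001 to 8000000 (47 of 79, 47.9 to 70.4). In the bin with the lowest share 14 members were found in replicate 1 alone and 23 in replicate 2 alone. These bins were picked as the lowest and highest of 14, and their difference was not tested. By bin the share in both lists ran from 24.2% to 56.2% on II and from 32.4% to 55.3% on IV. It ran from 20.6% to 48.6% on V and from 36.1% to 50% on X.

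Where both replicates called a region on III, they placed it closely. Partners were taken as the longest overlap in both directions, which gave 488 pairs. Their midpoints differed by a median of 28 bp, and 345 pairs (70.7%) lay within 50 bp. Starts differed by a median of 34 bp and ends by 33 bp. On II, IV, V and X the median shift of midpoints was 27, 28, 35 and 36 bp. Scores, taken as −log10 of q, had a Spearman correlation of 0.67 and a Pearson correlation of 0.73 across the 488 pairs on III. Genomic regions are not replicates and the lists may share a control, so this too is a description.

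**Figure D4:**
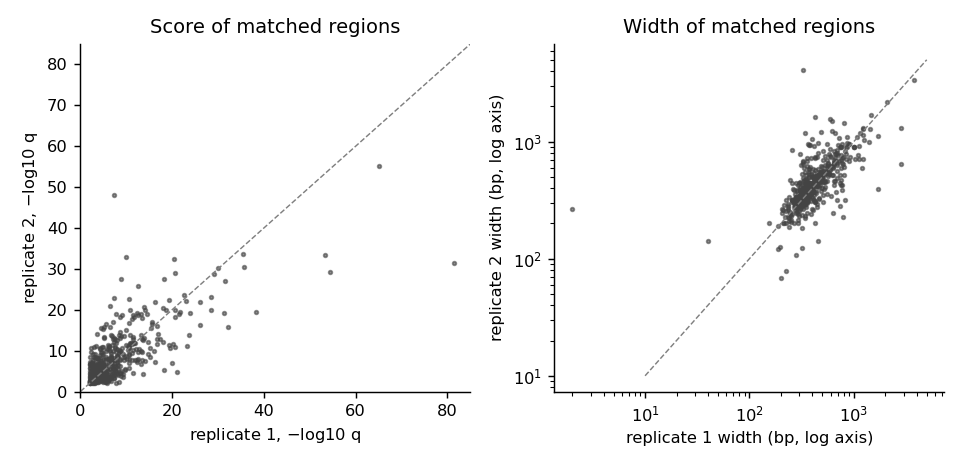
The 488 pairs of matched regions on chromosome III, with replicate 1 on the x axis and replicate 2 on the y axis, as −log10 of the q-value (left) and as width in bp on log axes (right); the dashed line marks equality. Most pairs gather along the line, and a few stand far off it, such as a pair with a width of 325 bp for replicate 1 but 4058 bp for replicate 2.

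The pairs on III differed from those on the other chromosomes in relative width. Replicate 1 gave the wider region in 205 of 488 pairs on III (42.0%, exact interval 37.6 to 46.5). On II, IV, V and X it did so in 50.4%, 50.7%, 50.3% and 53.2% of pairs, or 51.2% together. The difference passed Fisher's exact test (p = 0.000245, adjusted p = 0.000981 over 4 added tests), also among the 446 pairs on III with a reciprocal overlap of 50% (41.7% against 49.7%, adjusted exact p = 0.0108). On III the replicate 1 regions of these pairs had a median width of 378 bp, and the replicate 2 regions 403 bp. On the other 4 chromosomes they were 383 to 454.5 bp in replicate 1 and 384 to 443 bp in replicate 2. This comparison was chosen after the values were seen.

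Members on III had a median width of 361 bp in the combined list (interquartile range 280 to 515.5) and covered 483154 bp, 3.51% of the chromosome. The median was 370 bp on II, 364 bp on IV, 360 bp on V and 397 bp on X. Short regions under 100 bp numbered 60 (5.64%), where 6.71% of all regions were this short, against 5.69% on II, IV, V and X together (Fisher's exact p = 1, adjusted p = 1). Of these 60, 50 were found in neither replicate list and 0 in both. The replicate lists had fewer such short regions on III, 4 in replicate 1 (0.661%) and 29 in replicate 2 (3.79%). Regions of 1 kb or more numbered 62 (5.83%), where 4.89% of all regions were this wide, against 5.33% (Fisher's exact p = 0.503, adjusted p = 0.754). Width went with presence in the replicates: 40.8% of members from 200 to under 500 bp, 73.4% of those from 500 bp to under 1 kb and 79.0% of those of 1 kb or more overlapped both lists. Of the 57 members from 100 to under 200 bp, 0 did so. Over all members the Spearman correlation of width with score was 0.64, a description across regions. Presence needed only 1 shared bp, which a wider member can meet more readily. How far this rule shaped the shares by width was not tested.

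Broad regions were seen differently by the replicates. Replicate 1 had 24 regions of 1 kb or more on III (3.97%), against 6.24% on the other 4 chromosomes (Fisher's exact p = 0.0344, adjusted p = 0.103), and replicate 2 had 30 (3.92%), against 4.41%. All 24 of replicate 1 had a partner in replicate 2, which was itself 1 kb or more in 12. Of the 30 in replicate 2, 13 had a partner of 1 kb or more, 12 a narrower one and 5 none. Differences of this kind also occurred on II, IV, V and X. Among their broad replicate 1 regions, 20 of 34, 16 of 31, 20 of 44 and 39 of 62 had a broad partner. In replicate 2 these were 20 of 37, 15 of 28, 18 of 36 and 40 of 57. Those with no partner numbered 4, 1, 5 and 3 in replicate 1, and 6, 4, 3 and 2 in replicate 2. Of the 62 broad members of the combined list, 49 were present in both replicates, 8 in replicate 2 alone and 5 in neither. The bin 9000001 to 10000000 held 11 of them, more than any other.

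The widest members included 2 that replicate 2 carried almost alone. The widest, at 9051009 to 9055089 (4081 bp, q 2.98e-32, place 48), matched 9050964 to 9055004 in replicate 2. That region had the lowest q of replicate 2 on III, 6.99e-56. Replicate 1 had no region there. Further right, it had a 427 bp region at 9058979 to 9059405 (q 6.06e-06). The second widest, at 8443564 to 8447623 (4060 bp, q 1.17e-27, place 69), was called over 4058 bp in replicate 2 (q 6.95e-49) and over 325 bp in replicate 1 (q 4.74e-08). In both places the combined q was higher than that of replicate 2. The third widest, at 12612200 to 12615908 (3709 bp), had similar widths in both, 3774 bp in replicate 1 against 3392 bp in replicate 2.

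Other regions called by 1 replicate were weaker. After the region at 9050964, the strongest replicate 2 regions on III with no partner were 6361274 to 6362783 (1510 bp, q 1.46e-15, place 66) and 9930219 to 9930768 (550 bp, q 3.18e-11, place 128). In replicate 1 they were 9735802 to 9736365 (564 bp, q 3.07e-15, place 55), 1923455 to 1923937 (483 bp, q 4.75e-13, place 76) and 7278362 to 7278801 (440 bp, q 7.69e-09, place 149). Each of these 6 overlapped a combined region. In all, 116 replicate 1 and 274 replicate 2 regions on III had no partner, with median q-values of 0.00186 and 0.00129, against 3.10e-06 and 6.18e-07 for those with one.

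The last question was which members had the lowest q-values and were present in both replicates. The 20 members with the lowest combined q that overlapped both lists were also places 1 to 20 of all 1063. Their combined q-values ran from 1.63e-128 to 2.31e-45, and each was below both replicate q-values. The narrowest was 584 bp, the widest 3709 bp and the median width 866 bp, and 7 reached 1 kb. They lay in 10 of the 14 bins, with 4 each in 4000001 to 5000000 and 8000001 to 9000000. A total of 15 had 1 partner in each list, and 16 stood among the best 50 of III in both replicates.

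**Figure D5:**
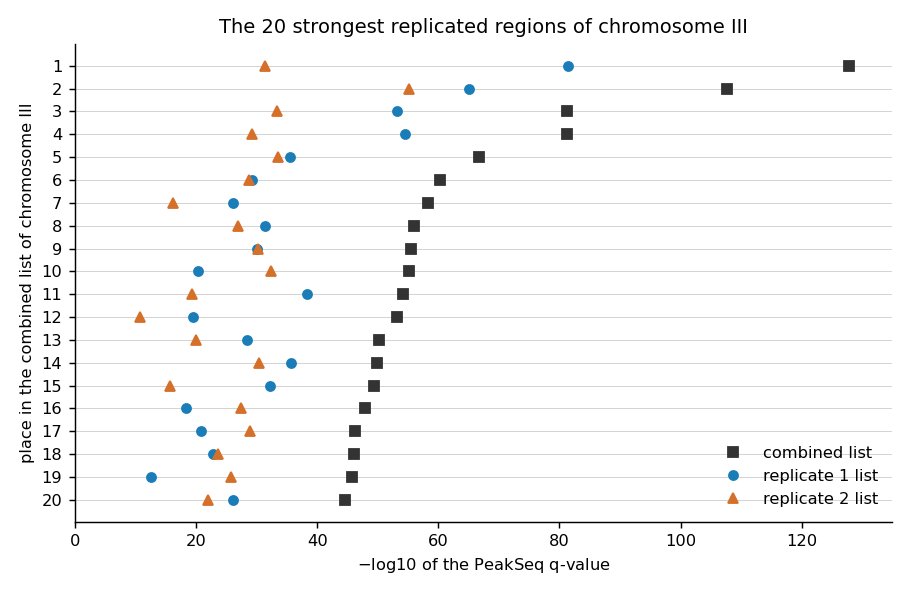
−log10 of the PeakSeq q-value (x axis) of the 20 strongest replicated regions of chromosome III, ordered by place in the combined list (y axis), in the combined, replicate 1 and replicate 2 lists. The combined value exceeds both replicate values in 20 of 20 regions, and the replicates lie far apart at place 1.

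The first place belonged to 8799765 to 8802653 (2889 bp, q 1.63e-128), which stood at place 5 of the whole combined list. Replicate 1 called it as 1 region at 8799809 to 8802643 (q 4.50e-82, place 1 on III). Replicate 2 called it as 2 regions, of which the stronger was 8801313 to 8802627 (q 4.64e-32, place 8). A second strong member lay close by, at 8794645 to 8796255 (1611 bp, q 6.36e-54, place 12), and each replicate called it as 2 regions. Its best places there were 32 and 121, the largest drop among the 20.

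The region best placed in both replicates, by the worse of its 2 replicate places, was 12612200 to 12615908 (q 1.79e-108), at place 2 in the combined list and at place 2 in both replicates, with q-values of 9.11e-66 in replicate 1 and 7.13e-56 in replicate 2. Next by this measure was 8417001 to 8418005 (1005 bp, q 4.73e-82), at places 4 and 5. It was followed by 4237571 to 4238246 (676 bp, q 1.87e-67), at places 7 and 4. This narrower region had q-values of 2.83e-36 in replicate 1 and 2.97e-34 in replicate 2. Its boundaries differed by 12 bp at the start and 4 bp at the end. The region at 3867359 to 3867947 (589 bp, q 1.27e-50) stood at place 14 in the combined list but at places 6 and 9 in the replicates.

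The regions at 1920877 to 1921787 (q 6.35e-82) and 1924765 to 1925625 (q 1.00e-56) belong to the dense stretch described above. With the region at 4237571 to 4238246, which lay in another dense stretch, 3 of the 20 stood in such stretches. At 5129016 to 5129777 (762 bp, q 5.11e-61) the q-values were 7.30e-30 in replicate 1 and 2.24e-29 in replicate 2, and at 4899583 to 4900224 (642 bp, q 3.90e-56) they were 7.86e-31 and 7.26e-31. The pair 4281812 to 4282682 (q 7.03e-55) and 4284567 to 4285150 (q 8.94e-47) lay within 3 kb of each other. The first of these had places 5 and 34 in replicate 1 and replicate 2, and the second 21 and 18. The regions at 8657875 to 8658771 (q 6.26e-51) and 3801156 to 3802001 (q 2.31e-45) had places 14 and 29 and places 16 and 25.

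Among the remaining regions of the 20, replicate 2 gave the lower q at 10330944 to 10331637, with 4.12e-33 against 4.53e-21 in replicate 1. It also did so at 12919665 to 12920299 (3.59e-28 against 5.56e-19), 11719304 to 11719931 (1.08e-29 against 1.85e-21) and 599037 to 601053 (1.62e-26 against 2.96e-13). The last of these, 2017 bp wide, was called as 2 regions in each replicate. Replicate 1 gave the lower q at 833512 to 836336 (2825 bp), with 6.62e-33 against 2.04e-16 in replicate 2. It also did so at 13060770 to 13063227 (2458 bp, 7.31e-27 against 6.05e-17). Among all 20, with the strongest overlapping region of each list taken, replicate 1 had the lower q in 14. Over the 488 pairs on III, matched by longest overlap instead, it had the lower q in 40.6%. On II, IV, V and X the share of such pairs was 40.6% to 43.6%. The q-values rank evidence within a list, so these counts do not compare levels of binding between replicates.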

How the data were processed

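The authors deposited 3 lists of enriched regions (replicate 1, replicate 2 and combined), made with PeakSeq, with positions on WormBase WS190, as the file headers and fields state. Each q-value is as deposited, and starts and ends are 1-based. Not given in the sources used here are the aligner, the PeakSeq settings, the input set against each list and the method of combining replicates. The lists hold no counts, so depth is unknown. No sequence or gene of WS190 was used, and a chromosome was taken to end at its furthest region.

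Bins of 1 Mb were filled by region midpoint. Overlap meant at least 1 shared bp; counts matched bedtools 2.31.1, and the code was checked on made-up lists with built-in classes. Shares have 95% exact Clopper-Pearson intervals, for counting error only. Shares were compared with two-sided Fisher's exact tests and density with exact binomial tests, with Benjamini-Hochberg adjustment over 6 tests against II, IV, V and X together, over 24 against single chromosomes and over 4 added tests. A p for an alternative was adjusted together with the unchanged p-values of its family.

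The members, measures and the rule for named regions (the 20 lowest q in both replicates, 5 dense stretches with most regions, 3 strongest unpartnered regions per replicate, 3 widest, 2 longest gaps, the 3 fullest and 2 emptiest bins) were chosen with earlier results of these data known. Other regions named, in the stretch at 1920877, were chosen after their values were seen. Calculations used Python 3.11.15, numpy 2.4.6, pandas 2.3.3, scipy 1.17.1 and matplotlib 3.10.9.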

Additional observations from a re-analysis of the deposited data

How the results depend on the processing

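Of 38 alternatives, 25 gave the same direction and call as the reported value, or one inside its interval. The share of regions on III was 17.5% with regions of 100 bp or more (adjusted exact p = 0.0505). To leave out a replicate, the authors' list of the other replicate was used. The share of regions on III was then 17.6% to 18.1%, and the share under 100 bp 0.661% to 3.79%. The share of 1 kb or more was 3.92% to 3.97%, below that of II, IV, V and X together in both lists. Gaps of 1 kb or less made up 10.76% to 10.85%, and the fullest bin 10.7% to 11.1% of members. The share in dense stretches was 0.522% to 2.64%, and that of dense stretches among runs 0.162% to 0.811%. The fullest bin was not the same one: it began at 8000001 in replicate 2 and at 5000001 in replicate 1. Its alternatives were counted among the 25 by share of members, not by position. The share of members found in neither replicate turned to 24.7% against 24.7% (24.741 and 24.677) with midpoints within 200 bp and to 8.92% against 7.28% at q of 0.001 or lower, and the share of 1 kb or more to 6.87% against 6.94%; none of these passed the test. Dense stretches held 3.29% of members with gaps of 1 kb and 23.0% with 5 kb, by construction. The share of replicate 2 regions found in replicate 1 passed at 58.2% with a reciprocal overlap of 50%. Tests on runs, partners and pair widths and their 8 alternatives were added after the data were seen. Causes were not tested. No paired analysis was possible because no list gives values for a library, and the number shared by immunoprecipitations and inputs is 1 alone. Depth is unknown, so absence from a list shows only that no region was called.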
